A study of Mus musculus with 40 samples.

Results

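The PPAR and RXR receptor genes were taken as 5 of the 55450 annotated mouse genes, Ppara, Ppard, Pparg, Rxra and Rxrg, and every histone-mark peak over each gene body and 20 kb on either side was described. They were chosen by name and not by any measured value, although earlier results of these data were known. Rxrb, the other RXR gene, is not among them and is described with the partner receptors. Together they carry 10 annotated start-site clusters, which are transcript starts joined where they lie within 1000 bp of each other. Per mark, the 8 lists together held 202 H3K4me3, 461 H3K27ac, 288 H3K4me1 and 1 H3K27me3 peaks in these windows, out of 457842 peaks in all 32 lists.

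The tissue was interscapular brown fat, as the methods describe it, taken at 20 weeks of age from C57BL/6N mice that were wild type, although the design text of the record names an inguinal depot. The 8 mice formed 4 groups of 2, namely warm on normal chow diet (NCD, mice 1 and 2), cold on NCD (mice 4 and 5), warm on high-fat diet (HFD, mice 7 and 8) and cold on HFD (mice 10 and 11), where cold meant 24 h at 4 °C and HFD meant 12 weeks of feeding from the age of 8 weeks. Each mouse gave 4 ChIP libraries and an input library that served as its peak-calling background. The methods can be read as pooling tissue of 2 mice per library, and whole tissue was used, so that a change in cell composition and a change within a cell cannot be told apart.

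PPARs are nuclear receptors for fatty acids and their derivatives, and they bind DNA as heterodimers with an RXR partner. The heterodimer recognises a direct repeat of the hexamer AGGTCA with a spacer of 1 base (DR1). In brown fat, PPARγ is required for adipocyte identity, PPARα is linked to fatty acid oxidation and thermogenic genes, and PPARδ is broadly expressed. H3K4me3 marks active start sites, H3K27ac marks active start sites and enhancers, H3K4me1 marks enhancers, and H3K27me3 marks Polycomb-repressed chromatin.

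The sequences that set the alternative starts apart are shown first, because the results turn on which start carries the marks. Each run is the 250 bases upstream of a RefSeq transcript start, on the + strand of GRCm38.p6, and capitals mark matches to AGGTCA or to the C/EBP-type motif TTGCNNAA on either strand. Of 32851 promoters of the same length, 14.0% held AGGTCA and 9.56% held TTGCNNAA.
Pparg1, chr6:115360894-115361143: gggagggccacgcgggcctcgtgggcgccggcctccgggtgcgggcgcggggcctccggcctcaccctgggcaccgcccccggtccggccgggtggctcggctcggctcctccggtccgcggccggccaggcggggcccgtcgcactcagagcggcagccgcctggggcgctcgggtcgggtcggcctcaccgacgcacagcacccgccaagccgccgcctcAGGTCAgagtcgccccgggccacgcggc
Pparg2, chr6:115421816-115422065: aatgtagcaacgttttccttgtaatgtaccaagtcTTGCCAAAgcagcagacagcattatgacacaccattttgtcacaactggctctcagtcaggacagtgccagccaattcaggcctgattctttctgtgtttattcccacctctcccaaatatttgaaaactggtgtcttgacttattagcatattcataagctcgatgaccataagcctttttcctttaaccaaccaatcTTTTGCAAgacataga
Rxrg upstream, chr1:167598112-167598361: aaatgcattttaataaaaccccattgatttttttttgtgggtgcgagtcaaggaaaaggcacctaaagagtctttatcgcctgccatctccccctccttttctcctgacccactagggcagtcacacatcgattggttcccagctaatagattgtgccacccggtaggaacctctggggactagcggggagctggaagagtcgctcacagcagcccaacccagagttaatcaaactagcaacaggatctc
Rxrg internal, chr1:167618015-167618264: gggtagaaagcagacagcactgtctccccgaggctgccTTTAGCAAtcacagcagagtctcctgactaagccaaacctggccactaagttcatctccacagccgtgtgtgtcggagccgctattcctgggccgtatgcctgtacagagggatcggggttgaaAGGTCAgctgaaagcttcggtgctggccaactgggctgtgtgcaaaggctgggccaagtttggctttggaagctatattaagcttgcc
The Pparg1 run was 82.4% G and C with 38 CpG dinucleotides, against 40.8% and 2 CpG for Pparg2, where the median of all promoters was 52.4% and 6. A second upstream Pparg run, not printed, at 115362099 to 115362348, was less extreme, with 63.6%, 12 CpG and 1 match to AGGTCA. The first annotated Pparg start used for the marks, 115360951, lies inside the printed Pparg1 run. The Pparg2 run held 2 matches to TTGCNNAA and no match to AGGTCA, and the Pparg1 run held 1 match to AGGTCA. The Rxrg internal run held 1 match to each motif and the upstream run held neither. The full DR1 sequence AGGTCANAGGTCA was found in none of the 4 printed runs and in 0.0335% of all promoters.

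4 distal regions of these genes carried an H3K27ac peak in all 8 mice, and 300 bases at the summit of 3 of them are shown, the pair downstream of Pparg and the upstream Ppara region, because they were the tallest of the recurrent distal regions. Capitals mark AGGTCA on either strand, which 24.4% of 33328 distal H3K27ac regions held in 300 bases. The +151 kb run lies beyond the end of the Pparg window, position 115510399, which its region overlaps.
Pparg +140 kb, chr6:115501038-115501337: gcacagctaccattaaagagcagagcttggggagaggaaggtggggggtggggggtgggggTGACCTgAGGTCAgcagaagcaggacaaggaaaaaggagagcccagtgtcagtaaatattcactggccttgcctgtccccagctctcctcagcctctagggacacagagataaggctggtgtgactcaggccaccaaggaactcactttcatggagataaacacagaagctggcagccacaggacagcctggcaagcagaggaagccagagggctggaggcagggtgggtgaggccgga
Pparg +151 kb, chr6:115511845-115512144: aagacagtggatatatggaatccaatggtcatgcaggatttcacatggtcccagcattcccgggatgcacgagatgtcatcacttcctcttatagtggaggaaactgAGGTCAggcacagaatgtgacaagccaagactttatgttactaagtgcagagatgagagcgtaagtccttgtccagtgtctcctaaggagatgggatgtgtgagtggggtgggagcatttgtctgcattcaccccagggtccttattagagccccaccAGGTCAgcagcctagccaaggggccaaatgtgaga
Ppara -11 kb, chr15:85723986-85724285: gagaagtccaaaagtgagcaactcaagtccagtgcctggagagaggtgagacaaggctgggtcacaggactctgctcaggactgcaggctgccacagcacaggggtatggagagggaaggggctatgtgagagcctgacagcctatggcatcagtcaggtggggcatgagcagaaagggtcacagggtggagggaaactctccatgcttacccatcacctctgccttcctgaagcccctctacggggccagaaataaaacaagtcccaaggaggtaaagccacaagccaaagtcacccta
Both Pparg runs held 2 matches, which at +140 kb point away from each other with 1 base between them, and the Ppara run held none. DR1 was found in none of them and in 0.108% of all distal regions. Summits of histone peaks sit on nucleosomes, so a match gives the letters in the window and not a bound site.

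Before the members are described, the lists themselves need a word, since peak calls depend on depth, which the peak lists do not give. H3K4me3 lists held 13517 to 24104 peaks and H3K27ac lists 3224 to 40604, the shortest of both being mouse 7. H3K4me1 lists held 12 to 27568 peaks, with 592, 12 and 18 in mice 1, 7 and 10, so that an absent H3K4me1 peak there says little, and H3K27me3 lists held 20 to 6428. For this reason a peak is given by its fold over input and by its fold percentile, its position from 0 (lowest) to 100 (highest) among the peaks of its own list, with 0 where no peak was called. Of 8 brown adipocyte markers, 5 had H3K4me3 at a start site in all 8 mice, Ucp1 among them, against 0 of 6 macrophage markers, 1 of 5 endothelial markers, 0 of 4 fibroblast and preadipocyte markers and 0 of 4 markers of unrelated tissues. Over all protein-coding genes the share was 41.5%. The median brown adipocyte marker had H3K4me3 in 8 mice, the median endothelial marker in 7, fibroblast and preadipocyte in 5.5 and macrophage in 0.5. Every endothelial and every fibroblast and preadipocyte marker had H3K4me3 in some mice. A peak in whole tissue does not tell which cells carry it, so the share of these cells was not tested. The muscle genes Mylpf and Actn3 had H3K4me3 peaks in 8 and 7 mice, while 4 of 8 muscle markers had none in any mouse.

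All 5 receptor genes had H3K4me3 at a start site in all 8 mice, and of the single clusters 7 of 10 did, against 41.5% of 21924 protein-coding genes and 33.6% of their 27586 clusters. H3K27ac in all 8 mice was found at 2 of the 10 clusters, those of Ppara and the upstream Pparg start, against 2.42% of clusters, and thus at 2 of 5 genes, against 3.11% of genes. A peak counted as at a start when its summit lay within 1000 bp. With 500 bp the counts of clusters were 3 for H3K4me3 and 0 for H3K27ac, and with a peak interval over the start they were 2 and 0.

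**Figure D1:**
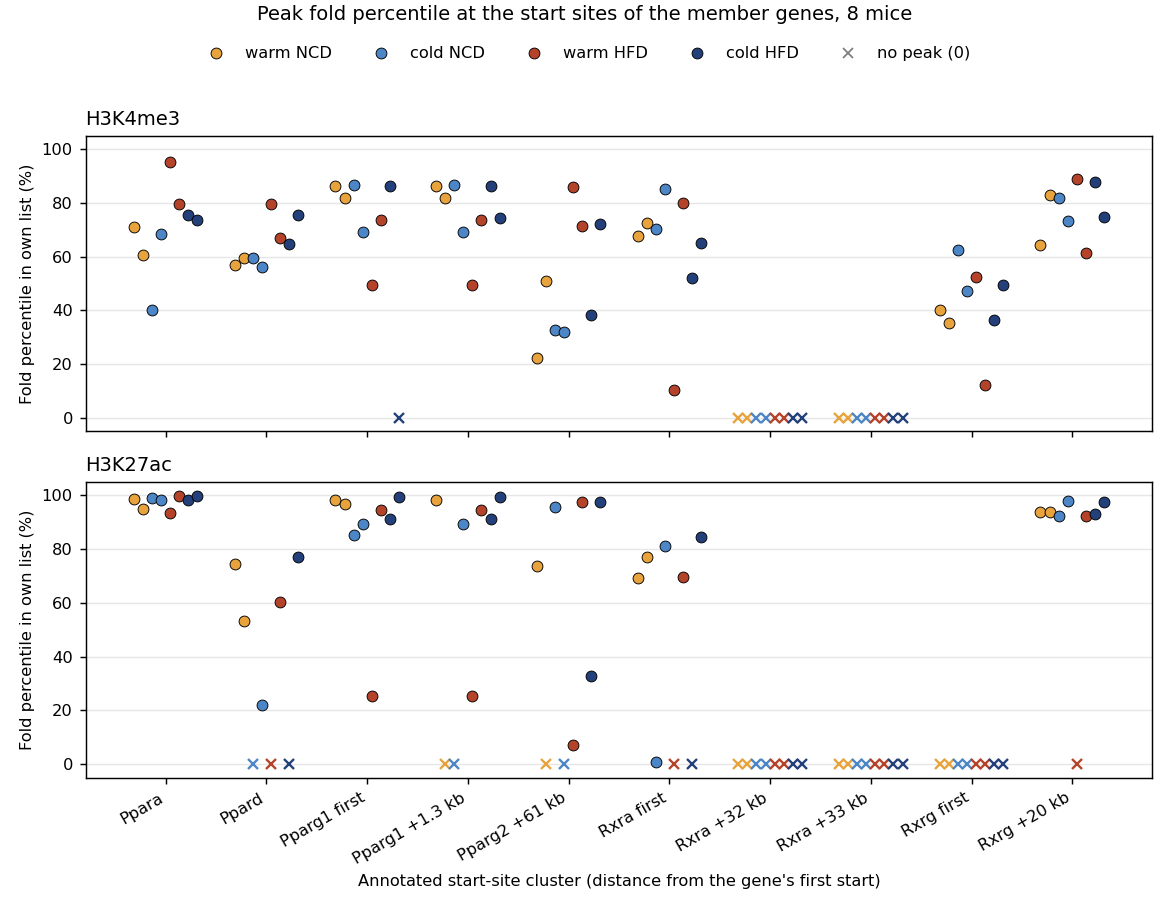
Fold percentile of the best H3K4me3 (top) and H3K27ac (bottom) peak within 1000 bp of each of the 10 start-site clusters, 1 point per mouse coloured by temperature and diet, crosses for no peak. Ppara sits above 93 for H3K27ac in every mouse, the internal Rxrg start carries both marks while the upstream start carries only H3K4me3, and the 2 internal Rxra starts carry neither.

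Pparg encodes the receptor on which adipocyte differentiation depends, and its 2 promoters give PPARγ1 and the adipose-restricted PPARγ2. The upstream promoter carried H3K4me3 and H3K27ac in every mouse, as a single wide peak in most. The H3K4me3 domain had folds of 35.4 and 36.9 in warm NCD, 33.2 and 64.8 in cold NCD, 16.2 and 14.5 in warm HFD and 18.5 and 26.4 in cold HFD. As fold percentiles these were 86.2, 81.8, 86.8, 69.2, 98.3, 73.5, 86.5 and 74.4 in the same order, and these overlapped between groups. The folds themselves did not overlap between diets, being higher on NCD, but neither did the median fold of the whole H3K4me3 list, 11.8 to 28.6 on NCD and 5.14 to 11.8 on HFD, so folds are compared between mice only beside their percentiles. The H3K4me3 peak at the upstream starts was 7046 to 9039 bp wide in mice 1, 2, 8, 10 and 11 and 1000 to 3861 bp wide in mice 4, 5 and 7. The H3K27ac peak there was 6760 to 8039 bp wide in 7 mice and 568 bp in mouse 7. H3K27ac in this domain had folds of 17.0 and 19.4, 9.19 and 14.0, 7.96 and 11.2, and 9.26 and 24.4 in the same order, at fold percentiles of 85.3 to 99.4.

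At the Pparg2 start, 61.1 kb downstream, H3K4me3 was present in all 8 mice but at lower folds, 6.81 and 16.4, 7.82 and 10.9, 9.03 and 14.0, and 6.36 and 25.1. Within a mouse the fold percentile of Pparg2 was below that of Pparg1 (the better of the 2 upstream clusters) in 7 of 8 mice, by 25.3 ± 33.6 points (SD, n = 8) on average. The exception was mouse 7, where the tallest H3K4me3 peak of the Pparg1 domain lay beyond 1000 bp of the start and was not counted, with 49.6 at Pparg1 and 86.1 at Pparg2, whereas the whole Pparg1 domain reached 98.3. Fold at Pparg1 was a median of 2.58 times that at Pparg2, from 0.565 in mouse 7 to 5.93. For H3K27ac the percentile at Pparg2 was below Pparg1 in 6 of 8 mice, by 34.6 ± 41.9 points, and higher in mice 4 and 8. This size rests on the 1000 bp rule, because mice 2 and 5 entered with 0 at Pparg2 although a called H3K27ac peak covered that start, with folds of 14.4 and 7.59 and fold percentiles of 90.4 and 59.1. Counting peaks whose interval covers the start, the mean H3K27ac difference was -15.4 points, and with summits within 500 bp it was -49.9 for H3K27ac and -40.7 for H3K4me3. Ranked by −log10 q, the order Pparg1 above Pparg2 held in 8 of 8 mice for H3K27ac and in 7 of 8 for H3K4me3. This H3K27ac count rests on the same 1000 bp rule, with mice 2 and 5 again entered with 0 at Pparg2. Folds of a narrow start and a broad domain are not measures of transcript amount.

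**Figure D2:**
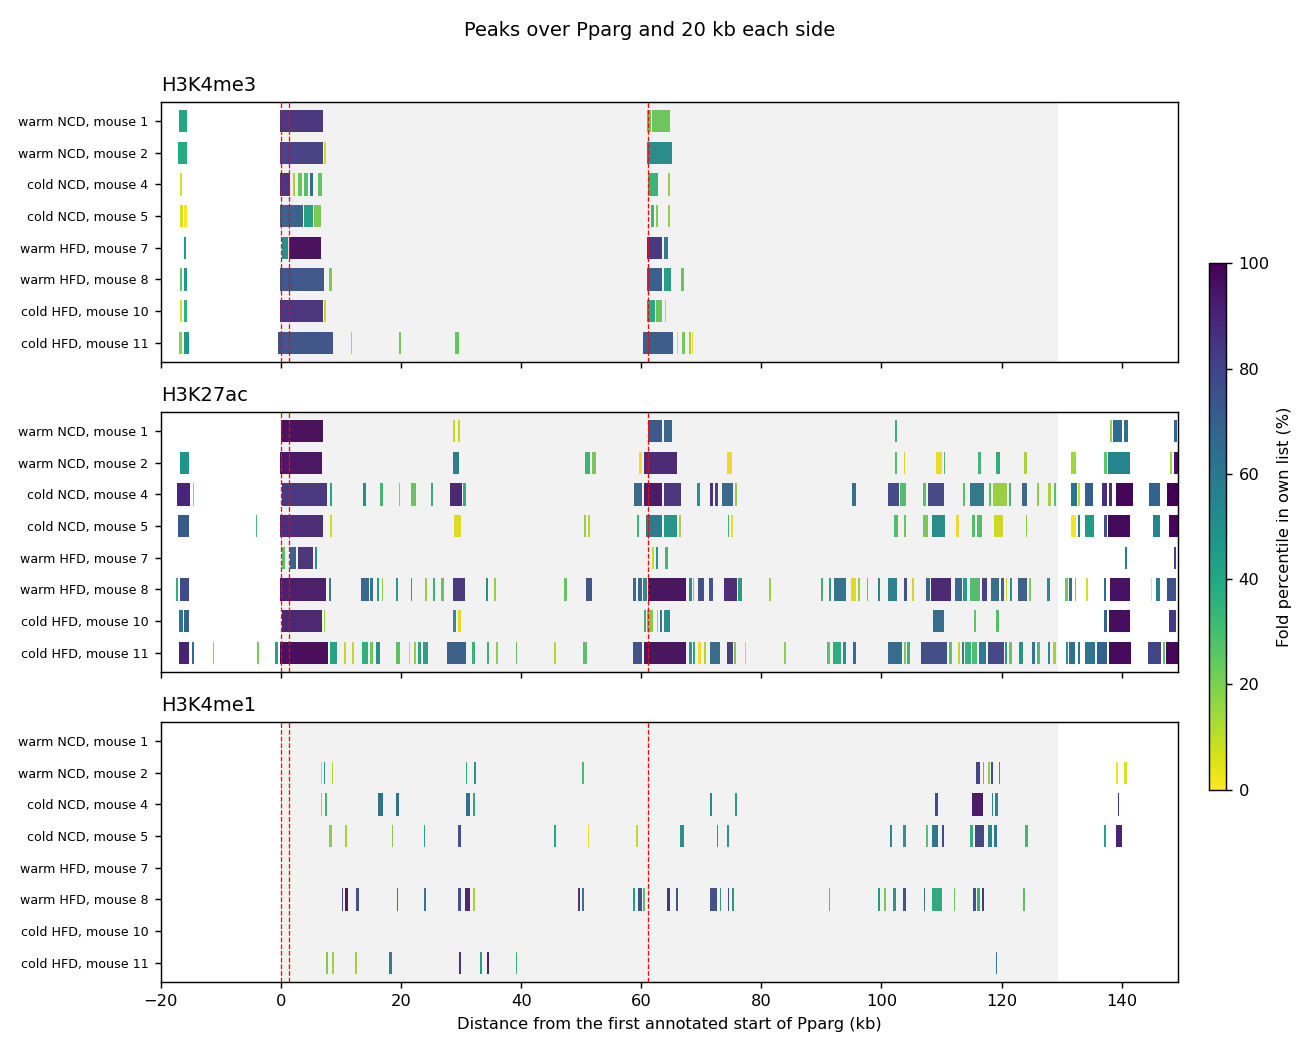
Peaks of H3K4me3, H3K27ac and H3K4me1 along Pparg in each of the 8 mice, by distance from the first annotated start in kb; bars are called peaks coloured by fold percentile, dashed lines the annotated starts and grey the gene body. The promoter domain is present in every mouse, the distal H3K27ac peaks number 59 and 61 in mice 8 and 11 against 5 in mouse 7, and mice 1, 7 and 10 have no H3K4me1 peak in the window.

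Around Pparg, distal H3K27ac was denser than around any other protein-coding gene. Merging overlapping peaks of the 8 mice gave 66 distal regions, those with no summit within 1000 bp of an annotated start, in a window of 169 kb, or 38.9 per 100 kb. This was the highest of 21951 genes, whose median was 0, and the next were Mgll, a monoacylglycerol lipase gene, at 32.7 and G430095P16Rik at 31.9. Of the 66 regions 52 lay in introns, 9 downstream, 4 upstream and 1 in an exon. Counting only the 41 regions seen in at least 2 mice, Pparg again ranked 1. By the share of the window covered, 39.9%, it ranked 6. The rank rested on the union of the lists, because single mice ranged from 5 to 61 distal Pparg peaks and Pparg was the densest gene in 2 of 8 lists, with a median rank of 164. Without mice 8 and 11, which had the longest lists, it ranked 9 with 40 regions.

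**Figure D3:**
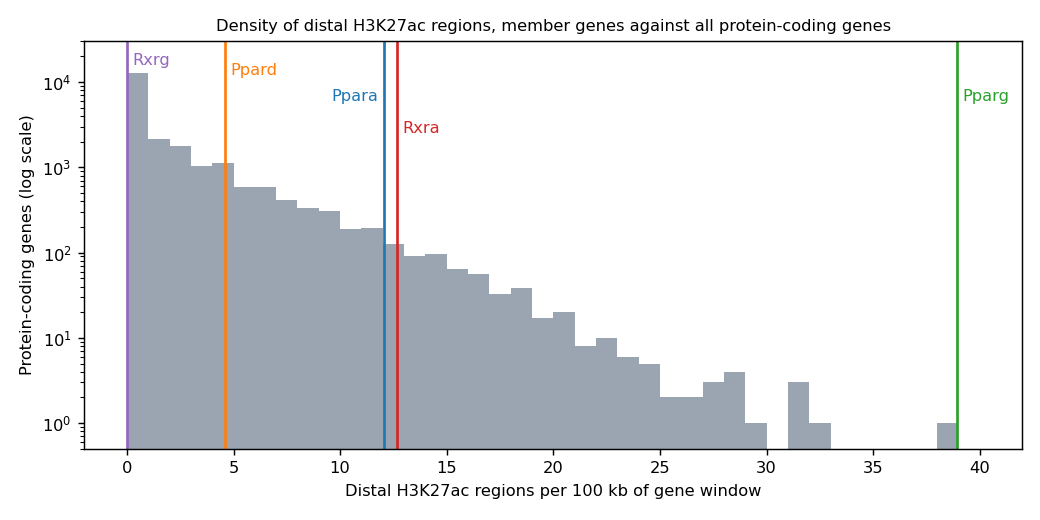
Distal H3K27ac regions per 100 kb of gene window for 21951 protein-coding genes (grey bars, logarithmic vertical axis), with the 5 receptor genes as vertical lines. Pparg lies at the right end at 38.9, Rxra at 12.6 and Ppara at 12.1 lie in the upper tail, Ppard is at 4.60 and Rxrg at 0.

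Per mouse, distal Pparg peaks numbered 9 and 16 in warm NCD, 36 and 24 in cold NCD, 5 and 59 in warm HFD and 13 and 61 in cold HFD. Per 10000 distal peaks of the same list these were 14.2, 10.4, 18.3, 14.1, 30.6, 29.8, 16.5 and 23.3. The values were 25.1 ± 6.57 in the 4 HFD mice and 14.3 ± 3.26 in the 4 NCD mice (SD), and overlapped, with p = 0.0571 in a two-sided exact permutation test. By temperature they were 18.1 ± 3.88 in cold and 21.2 ± 10.5 in warm mice, p = 0.571 in the same exact test. A peak in all 8 mice was found at 2 distal regions, both downstream of the gene end. The region at +151 kb overlapped the window, which ends at position 115510399. Its best summit, at 115511995, lay beyond that end, so its folds describe a site outside the window. The region at +151 kb had folds of 13.7 and 18.3 in warm NCD, 35.0 and 22.6 in cold NCD, 11.1 and 18.1 in warm HFD, and 16.5 and 23.6 in cold HFD, and its lowest fold percentile in any mouse was 95.7. The intronic region at +28.8 kb was the third by recurrence, with a peak in 7 mice and folds of 3.71 to 11.2. H3K4me1 lay over 3 of 16 of these peaks in mouse 2, 8 of 36 in mouse 4, 14 of 24 in mouse 5, 13 of 59 in mouse 8 and 5 of 61 in mouse 11. Over all distal H3K27ac peaks of the same mice the shares were 41.3%, 28.5%, 46.8%, 24.3% and 10.9%, so that Pparg lay below that share in 4 of these mice and above it in mouse 5.

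Ppara encodes the receptor that drives fatty acid oxidation genes, and its start site ranked highest of the 5 genes for H3K27ac. Folds at the start were 17.5 and 17.3 in warm NCD, 22.3 and 23.1 in cold NCD, 9.17 and 20.5 in warm HFD, and 13.6 and 25.5 in cold HFD. The fold percentiles ran from 93.3 to 99.7 with a median of 98.4, and the groups overlapped. Median H3K27ac at the start was above that of 99.4% of protein-coding genes. These peaks were also broad, 2470 to 8800 bp, and their lowest percentile of width within a list was 97.0. H3K4me3 at the same start had folds of 9.45 to 63.1 and a median fold percentile of 72.3, above 72.1% of genes.

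Ppara had 13 distal H3K27ac regions, or 12.1 per 100 kb, more than 97.4% of genes. A region of 10044 bp upstream, at chr15:85716321-85726364, was present in all 8 mice. Its best peak lay 11.4 kb before the start, with folds of 14.3 and 15.1 in warm NCD, 30.8 and 21.2 in cold NCD, 10.5 and 14.4 in warm HFD, and 14.5 and 25.7 in cold HFD. Its fold percentile was 91.7 to 99.8, hence close to that of the start itself. The intronic region at +36.8 kb was the second with peaks in all 8 mice, with folds of 4.93 to 12.0, and the region at +52.2 kb had peaks in 3. In mouse 7, whose list held 1632 distal peaks, 10 fell in the Ppara window, 61.3 per 10000 against 3.82 to 10.2 in the other mice. Of these 10 peaks 9 were pieces of the upstream region, and together they covered 4275 bp, against 8125 to 19575 bp in the other mice.

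Ppard encodes the broadly expressed receptor, and its start carried H3K4me3 in every mouse and H3K27ac in some. H3K4me3 at its start had folds of 20.4 and 22.8 in warm NCD, 14.8 and 39.8 in cold NCD, 7.76 and 12.97 in warm HFD, and 10.5 and 27.03 in cold HFD, at fold percentiles of 56.3 to 79.4. H3K27ac at the start was called in 5 of 8 mice, with folds of 4.97 to 7.84, and was absent from mice 4, 7 and 10. The median fold percentile of its start over the 8 mice was above that of 61.1% of protein-coding genes for H3K4me3 and 73.1% for H3K27ac, and its distal H3K27ac density, 4.60 per 100 kb, was above that of 83.6%. The only recurrent distal region lay at +3.61 kb, in 7 mice with folds of 4.18 to 10.5. The other 4 distal regions were each called in 1 mouse, among them those at +76.1 and +79.3 kb. H3K4me1 was called at +19.9 kb in 5 mice with fold percentiles of 63.0 to 93.4 and at +39.2 kb in 5 mice, and no H3K27ac region overlapped 3 of the 7 H3K4me1 regions seen in at least 2 mice. The window also held the only H3K27me3 peak of the 5 genes, in mouse 11, 15.0 kb upstream with a fold of 4.27.

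Rxra encodes the RXR that is present in most tissues and is a common partner of the PPARs. Only the first of its 3 start-site clusters carried H3K4me3 or H3K27ac, and no peak of either mark lay at the starts 32.1 and 33.4 kb downstream in any mouse. H3K4me3 at the first start had folds of 26.6 and 31.4 in warm NCD, 19.2 and 96.9 in cold NCD, 3.13 and 16.3 in warm HFD, and 8.11 and 21.02 in cold HFD. The fold percentile was 10.4 in mouse 7 and 52.0 to 85.1 in the others, and no H3K4me3 peak covered the annotated start itself, its summit lying 563 to 766 bp inside the gene in 7 mice and at -636 bp in mouse 4. H3K27ac was called at this start in 6 mice and was absent from mice 7 and 10. In mouse 4 its fold was 2.16, at a fold percentile of 0.794, near the bottom of that list. In the other mice with a peak the fold percentile was 69.2 to 84.6.

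The Rxra gene body was rich in H3K4me1. At least 2 mice shared each of 22 H3K4me1 regions, 17.4 per 100 kb, which ranked 101 of 21951 genes, and 8 of the 22 overlapped no H3K27ac region. The most recurrent, at +10.3 and +25.6 kb, had peaks in 6 mice, and the region at +22.2 kb had fold percentiles of 96.5 to 99.9 in mice 2, 4, 5 and 11, 6.25 in mouse 8 and no peak in mice 1, 7 and 10. The third annotated start lay in an H3K4me1 region with a summit within 1000 bp in 5 mice. Distal H3K27ac at Rxra was intronic throughout, 16 regions, and the most recurrent lay at +2.52 and +63.0 kb in 7 mice. Those at +36.6 and +68.7 kb followed in 5 mice each. Among the mice with a peak, +36.6 kb had the higher median fold percentile. With 0 for mice without a peak, the order of the medians was reversed. Folds reached 17.2 at +2.52 kb, 10.5 at +63.0 kb and 7.05 at +36.6 kb, and mouse 7 had no H3K27ac peak in the window. H3K4me1 lay over 8 of 9 distal H3K27ac peaks in mouse 2, 9 of 11 in mouse 4, 7 of 10 in mouse 5, 1 of 5 in mouse 8 and 3 of 12 in mouse 11, where 41.3%, 28.5%, 46.8%, 24.3% and 10.9% of all distal peaks of the same mouse did.

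**Figure D4:**
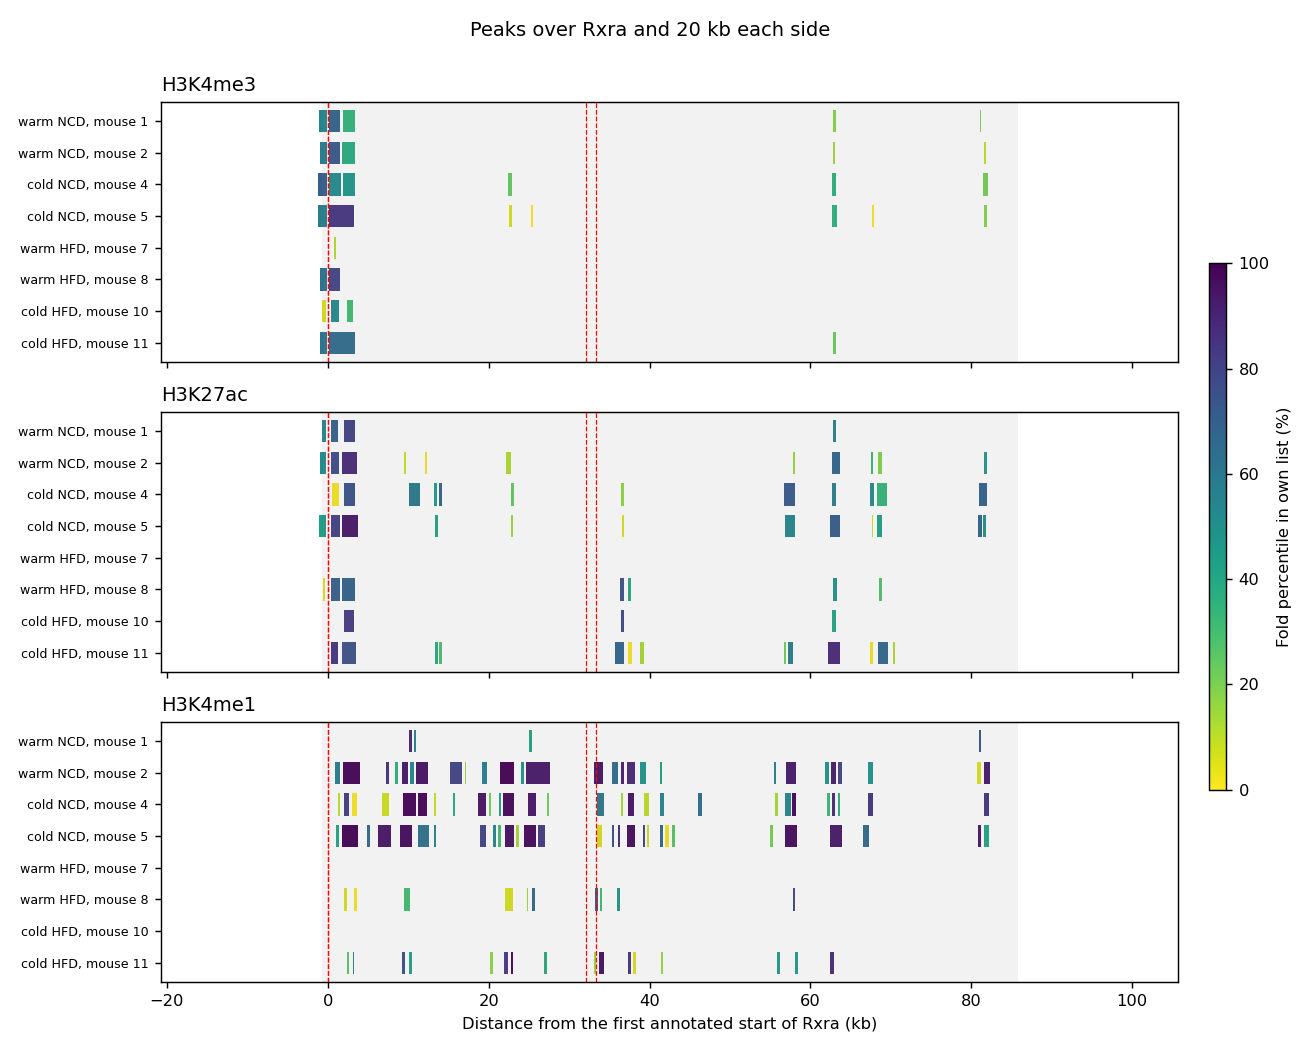
Peaks of H3K4me3, H3K27ac and H3K4me1 along Rxra in each of the 8 mice, by distance from the first annotated start in kb, bars coloured by fold percentile, dashed lines the annotated starts and grey the gene body. H3K4me3 is strongest on either side of the first start and absent from the others, and H3K4me1 is spread over the body in mice 2, 4, 5, 8 and 11 but absent from mice 7 and 10.

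Rxrg encodes the RXR with the most restricted expression, and it differed from Rxra in using an internal start with no distal H3K27ac. At the internal start, 19.9 kb downstream, H3K4me3 had folds of 24.8 and 37.8 in warm NCD, 27.1 and 72.6 in cold NCD, 9.86 and 11.7 in warm HFD, and 19.2 and 26.5 in cold HFD. At the upstream start the folds were 11.9 and 8.79, 15.8 and 24.4, 5.28 and 3.88, and 6.12 and 11.4. The internal start was higher in 8 of 8 mice, by a factor of 1.71 to 4.30 with a median of 2.65, and its fold percentile was higher by 34.9 ± 12.9 points (SD, n = 8). H3K27ac at the internal start was present in 7 mice, with fold percentiles of 92.3 to 98.01, and was absent from mouse 7. At the upstream start no mouse had H3K27ac. The window held 0 distal H3K27ac regions, as did that of the median gene, and 2 H3K4me1 peaks, each in 1 mouse. The H3K27ac peak at the internal start was thus the only H3K27ac region of the gene.

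Whether temperature or diet moved the marks was asked region by region, by whether the fold percentiles of the 4 and 4 mice overlapped, which is the smallest result 4 against 4 can give (exact permutation p = 0.0286, two-sided). By temperature this was met by 1 of 45 H3K4me3 regions in the receptor windows, against 3.54% of all 28739, and by 2 of 114 H3K27ac regions, against 2.12% of all 47548. By diet it was met by 2 of 45 H3K4me3 regions, against 3% of all, and by 0 of 114 H3K27ac regions, against 0.721%. Each count is at most a few regions beside that background, and the counts are those at an unadjusted p below 0.05. After Benjamini-Hochberg adjustment over all regions of a mark, the smallest adjusted p in the exact permutation test was 0.807. With p never below 0.0286, a region could pass only if a large share of all regions separated. The adjusted values therefore decide nothing about a single region, and the counts are read only against the shares over all regions. Present in all 4 mice of 1 temperature and none of the other were 0 of 287 regions of any mark, against 0.155% of all regions, and for diet 0 of 287, against 0.217%. For 127 of the 287, the H3K4me1 regions, this was fixed beforehand by temperature, because mice 7 and 10 had no H3K4me1 peak in the windows. For the same reason none of them could be present in all 4 HFD mice. The 1 H3K27me3 region was called in 1 mouse and could not split either. The interaction of temperature and diet had an unadjusted exact permutation p below 0.05 at none of the member regions of H3K4me3 or H3K27ac, against 1.03% and 0.143% of all.

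The 2 H3K27ac regions that separated by temperature were neighbours downstream of Pparg, both higher in cold. At +140 kb the fold percentiles were 98.7 and 97.3 in cold NCD and 96.6 and 97.2 in cold HFD, against 64.8 and 54.8 in warm NCD and 59.8 and 95.7 in warm HFD. Mouse 8, warm on HFD, was thus within 1 point of the lowest cold mouse, and on the fold scale, 20.6, 20.9, 11.7 and 17.1 in cold against 6.93, 6.90, 6.08 and 12.0 in warm, the groups overlapped. At +137 kb they were 86.5 and 75.3 in cold NCD and 69.1 and 69.5 in cold HFD, against no peak and 25.3 in warm NCD and no peak and 63.5 in warm HFD. The +137 kb region also separated on the fold scale. Each had an exact permutation p of 0.0286 and an adjusted p of 1. With peaks limited to a −log10 q of at least 5, the count of separated H3K27ac regions was 0. Of all 1007 H3K27ac regions that separated by temperature, 1006 were higher in cold, so the direction is that of the lists as a whole.

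The 2 H3K4me3 regions that separated by diet were the starts of Ppara and Ppard, both at higher fold percentiles but lower mean folds on HFD. At Ppara the fold percentiles of the region were 71.0 and 60.5 in warm NCD and 61.2 and 68.4 in cold NCD, against 95.4 and 79.7 in warm HFD and 75.5 and 73.6 in cold HFD. At Ppard they were 56.9, 59.6, 59.6 and 56.3 on NCD, against 79.4, 67.0, 64.6 and 75.6 on HFD. On the fold scale the direction turned, with overlap between diets: the mean fold at Ppara was 17.1 ± 6.05 on HFD and 32.5 ± 21.1 on NCD, and at Ppard 14.6 ± 8.57 on HFD and 24.5 ± 10.8 on NCD (SD, n = 4 each). With the lists limited to equal numbers of top peaks, 1 H3K4me3 region was separated by diet in place of 2. Ranked by −log10 q, 1 H3K4me3 region was separated by diet. For the peak at the start, the −log10 q percentiles of the 2 diets did not overlap at Ppara but overlapped at Ppard. The H3K4me3 region that separated by temperature was the start of the neighbour Cdpf1 downstream of Ppara, at 76.3, 74.7, 71.6 and 71.3 in cold mice against 58.6, 57.7, 8.42 and 41.6 in warm mice. Of the H3K4me3 regions over all genes that separated by temperature 958 were higher in cold and 60 in warm, and by diet 166 were higher on HFD and 695 on NCD.

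**Figure D5:**
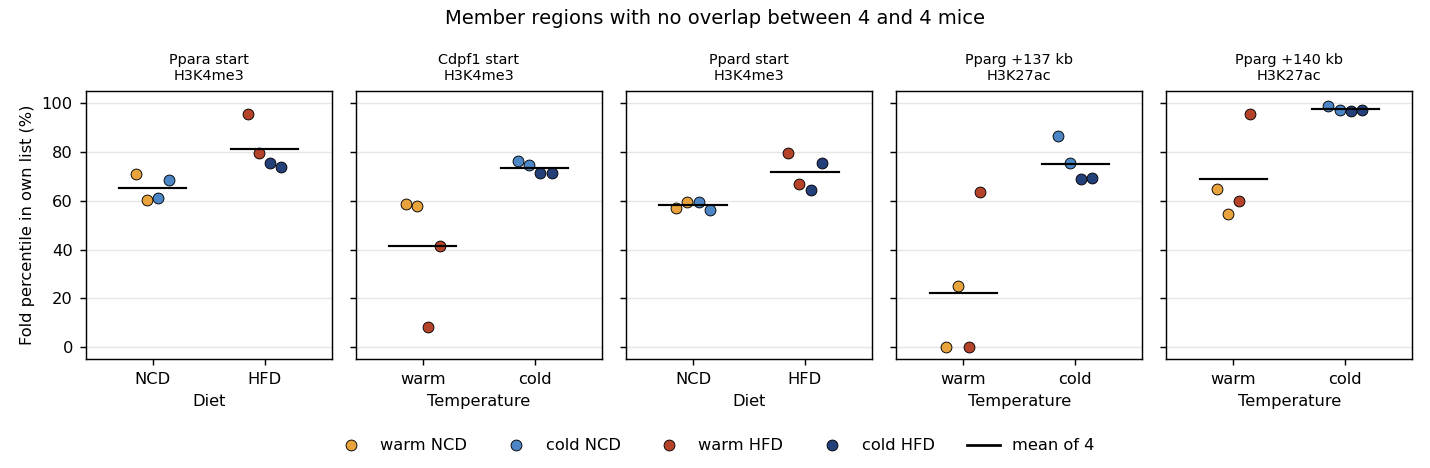
Fold percentile of the 5 member regions whose 4 and 4 values do not overlap, each point a mouse coloured by group and each line the mean of 4. The Ppara and Ppard starts are at higher percentiles on HFD (means of 81.0 against 65.2 and 71.7 against 58.1), though their mean folds are lower on HFD, and the Cdpf1 start and the Pparg regions at +137 and +140 kb are higher in cold.

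The other receptors and cofactors of the pathway, and the genes PPARs are known to activate, give the setting. Over all 21924 protein-coding genes, 41.5% had H3K4me3 and 3.11% had H3K27ac at a start in all 8 mice. A count of 1 gene in a list is too small to read against these shares. Of 14 RXR and partner receptors 10 had H3K4me3 at a start in all 8 mice, among them Nr1h2 and Nr1h3 (the LXRs) and Nr4a1 and Nr4a2 (orphan receptors), and 3 had none in any mouse, Nr1h4 (FXR), Nr1i2 (PXR) and Nr1i3 (CAR). H3K27ac in all 8 was found at 1 of the 14, Rarb. Rxrb, the RXR that is not among the 5 genes, had H3K4me3 in 8 mice and H3K27ac in 6. Of 16 coregulators 9 had H3K4me3 in all 8 mice and 1, the corepressor gene Ncor1, had H3K27ac in all 8. Ppargc1a, a coactivator known to be induced by cold, had H3K4me3 peaks in 3 mice, 2 cold and 1 warm. Its H3K27ac peaks were in 4 mice, 1 cold and 3 warm. Of 30 PPAR target genes 19 had H3K4me3 and 14 had H3K27ac in all 8 mice, with a median gene at a fold percentile of 93.1 for H3K27ac, against 0 over all 21924 genes. Among them Acadm and Acadvl (acyl-CoA dehydrogenases) and Acsl1 (acyl-CoA synthetase) had both marks in all 8. By temperature 3 of the 30 separated for H3K4me3 and 2 for H3K27ac, all higher in cold, and over all genes 2.61% and 0.538% were higher in cold.

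The genes most like each receptor in start-site percentiles over the 16 H3K4me3 and H3K27ac libraries were found by the mean absolute difference in fold percentile. For Pparg they were Mrap, Tcf4 and Shc1, at 5.00, 5.50 and 6.04 points. For Ppara they were Nudt12, Lrrc39 and Atp5j, at 6.61, 6.85 and 7.18, and for Ppard they were Smad2, Sar1a and Pcgf2, at 8.08, 9.28 and 9.29. For Rxra they were Fam53a, Lekr1 and Tmem185b, at 3.86, 4.92 and 5.15, and for Rxrg they were Dhcr7, Prdm9 and Pygl, at 5.00, 5.47 and 5.56. The measure is a description over libraries that share mice.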

How the data were processed

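ChIP-seq of 4 histone marks with matched input was done on 8 mice. Per the labels and methods, the authors filtered reads with cutadapt, mapped them to GRCm38 with Bowtie2 and called peaks with MACS2 against the input of the same mouse. The deposited lists give each peak a fold enrichment ratio and −log10 p-value and −log10 q-value. Read depth is unknown. The 5 genes and the gene lists were chosen with earlier results of these data known.

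Here GENCODE M21 basic starts of a gene were joined within 1000 bp, and windows were the gene body and 20 kb each side. Peaks of a mark were merged over mice at an overlap of 1 bp. Fold percentiles were taken within a list, with 0 for no peak. Groups of 4 were compared by non-overlap and by exact permutation, two-sided, of the 70 possible assignments, adjusted by Benjamini-Hochberg over all regions (python 3.11.15, pandas 2.3.3, scipy 1.17.1), checked on simulated data. The labels do not say how replicate libraries were prepared beyond the mouse number, so p-values refer to these samples only. Each is the share of the 70 assignments with a mean difference at least as large. Groups of 4 pooled both levels of the other factor, with 2 mice of each. Promoter sequences were RefSeq's for GRCm38.p6, which matched all 5 genes. Named regions were up to 3 distal H3K27ac regions a gene by recurrence, every region without overlap between groups, and H3K4me1 or H3K27me3 regions. Like genes were the 3 nearest. Examples of a list were those at the extreme numbers of mice. Ncor1, Ppargc1a, Rarb, Mgll, G430095P16Rik and the H3K27me3 region were named after their values were seen. Alternatives changed the distance to the start, the window, the q threshold, the ranking, the overlap and the mice.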

Additional observations from a re-analysis of the deposited data

Results flagged for a closer look

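Of 19 sets of 8 values tested, 4 held a mouse far from the other 7. Independent sets of normally distributed values would give about 1 in 20, or 0.95. These sets share mice and peaks, hold percentiles with 0 for no peak, and for distal Rxrg hold only 0. The figure of 0.95 is therefore not a chance level for them. In all 4 the mouse was mouse 7, warm on HFD, whose H3K4me3 and H3K27ac lists were the shortest. Its H3K27ac fold percentile at the upstream Pparg start was 25.2 against 85.3 to 99.4 in the others, where the taller peaks of its domain had summits beyond 1000 bp and the whole domain reached 86.9. Its H3K4me3 fold percentile at the second Pparg cluster was 49.6 against 69.2 to 86.8, with 98.3 for the whole H3K4me3 domain. At the first Rxra start its H3K4me3 fold percentile was 10.4 against 52.0 to 85.1. Its distal H3K27ac peaks at Ppara were 61.3 per 10000 distal peaks against 3.82 to 10.2. Of the 10 peaks 9 were pieces of 1 region, and the length they covered, 4275 bp, was the smallest of the 8 mice.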

How the results depend on the processing

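Limits. Peak presence depends on the length of a list, 3224 to 40604 for H3K27ac, and depth is unknown. With 4 mice against 4, exact permutation cannot go below 0.0286. No paired analysis was possible because the conditions compared share no mouse numbers, which only tie the marks of 1 mouse together.

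With summits within 500 bp, clusters marked in all 8 mice were 3 for H3K4me3 and 0 for H3K27ac, with 2500 bp 4 for H3K27ac, and with an interval over the start 2 and 0. With a −log10 q of at least 5, distal H3K27ac regions were 57, those in all 8 mice 2, H3K4me3 regions separated by diet 1, H3K27ac regions by temperature 0, and regions split by presence between diets 1. In the gene body alone, distal regions in all 8 mice were 1 and regions separated by temperature 0 for both marks, while 50 kb flanks gave 2 for H3K4me3. Percentiles of q and top peaks of equal number each gave 1 H3K4me3 region by diet, and top peaks or regions in all 8 mice gave 1 H3K27ac region by temperature. Chosen after seeing the data, the rank of Pparg was 6 by covered share, 164 as a median over lists, 9 without mice 8 and 11, and 1 without any single mouse. Counts under these settings stand without the share over all regions, so they cannot be read against a background. The cause of these changes was not tested.

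Leaving out 1 mouse gave 7 to 8 H3K4me3 and 2 to 3 H3K27ac clusters, 87 to 103 distal regions and 4 to 8 in all 8 mice (8 without mouse 7). Regions separated by temperature were 1 to 6 for H3K4me3 (6 without mouse 10, where 10.8% of all regions separated, and 3 without mouse 11, 5.90%) and 2 to 8 for H3K27ac (8 without mouse 8, 4.68%, and 7 without mouse 10, 7.18%). By diet they were 2 to 4 for H3K4me3 (4 without mouse 2, 10 or 11, 4.47%, 5.18% and 12.2% of all). For H3K27ac they were 0 to 4, with 4 without mouse 1 (3.82% of all) and 2 without mouse 11 (3.04%). Without mouse 4 or 7, 1 H3K27ac region separated by diet, against 2.11% and 1.51% of all. Presence splits by temperature were 0 to 6, with 6 without mouse 10 (1.37% of all) and 1 without mouse 8 (0.493%). By diet they were 0 to 13, with 13 without mouse 1 (2.61% of all). Without mouse 4, 7 or 11 the count by diet was 1, against 0.325%, 0.298% and 1.23% of all. The mean Pparg2 minus Pparg1 difference was -34.2 to -19.8 points for H3K4me3 and -41.0 to -25.7 for H3K27ac, and over the other settings it moved by over 1.5 times to -40.7 for H3K4me3 with 500 bp and to -15.4 for H3K27ac with an interval over the start.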
